A study of Mus musculus with 462 samples.

Results

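Snhg3 and Snhg12 are small nucleolar RNA (snoRNA) host genes on mouse chromosome 4, and the values below are the allele-assigned counts of these 2 transcripts out of 692 in their capture list. They were found by name in 196 of the 439 libraries with a count file, from a series of 462 samples. Each library is poly(A)+ RNA of 1 clone, enriched for chosen transcripts by hybrid selection, in which probes pull down the wanted library fragments. The clones derive from mouse embryonic stem cells that are F1 hybrids of 129 and Castaneus, so that reads over a strain difference can be assigned to an allele. All were grown in 2i/LIF medium on gelatin and laminin. The study compared clones carrying a heterozygous modification with unmodified clones, and the modified with the unmodified chromosome inside 1 clone.

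The modified clones fell into 16 groups with 110 clones, against 86 Control clones. Snhg3-PromoterDeletion (8 clones) removed the promoter of Snhg3, and Rcc1-PromoterDeletion (8 clones) that of Rcc1, the next gene along. In the other 14 groups (94 clones) the modified locus lay on another chromosome. Of these, 8 groups were promoter deletions of date label 150126, at Crlf3 (9 clones), Gpr19 (5), Slc30a9 (9), Snhg17 (5), linc1423 (9), linc1509 (7), linc1536 (6) and linc2025 (8). The other 6 carried pAS insertions, in which a polyadenylation signal is placed to end transcription early. They were Gpr19-pAS (7 clones) and linc1536-pAS (7) of 150416, and, under a later date label, Gpr19-pAS-151214 (7), Slc30a9-pAS (6), linc1329-pAS (5) and linc2025-pAS (4). The labels' Snhg17 and linc1329 were read at the same row. Control clones numbered 77 at 150126 and 9 at 150416. There was none of the later date, so its 4 groups were set against all 86. Each sample is 1 clone, and clones are numbered here in accession order. In bulk RNA of this kind, fewer cells that express a gene and less RNA per cell cannot be told apart. The labels do not say which parental chromosome was modified, or which strain each of the 2 allele columns stands for. They name a female line, while the growth protocol names male cells. Of 29 marker genes of embryonic stem cells and of other lineages, 0 were in the capture list, so the labelled cell type could not be checked against its markers.

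snoRNAs are short RNAs of the nucleolus that guide the chemical modification or cleavage of ribosomal RNA. Most mammalian ones are cut out of the introns of a host transcript, whose spliced exons may or may not encode a protein. Snhg3 and Snhg12 are noncoding hosts: the introns of Snhg3 carry snoRNAs of the H/ACA class, and those of Snhg12 carry snoRNAs of both the H/ACA and the C/D class. The libraries measured the polyadenylated host RNA, not the snoRNAs, which have no poly(A) tail.

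In the mm9 coordinates of the count files, Snhg12 lay at 131864593 to 131866939 of chromosome 4 on the plus strand. Trnau1ap (131867678 to 131885453), whose product associates with selenocysteine tRNA, began 0.738 kb further on. Rcc1 (131887834 to 131901665), which encodes the nucleotide exchange factor of the GTPase Ran, followed after 2.38 kb. Snhg3 (131907848 to 131909601) lay 6.18 kb beyond Rcc1 and 40.9 kb beyond Snhg12. Trnau1ap, Rcc1 and Snhg3 are annotated on the minus strand, so Rcc1 lies downstream of Snhg3. In human, annotated transcripts join SNHG3 to RCC1. No other captured row overlapped either host gene.

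The promoters are shown because one of them was deleted and the other serves the same kind of gene. The windows run from 250 bases before to 50 bases after the annotated start, as RefSeq gives them on GRCm38.p6, a later build than that of the count files. Snhg3 occupies chr4:132353637-132353936 on the minus strand and Snhg12 chr4:132308428-132308727 on the plus strand. Capitals mark matches to 4 motifs searched on both strands.
Snhg3: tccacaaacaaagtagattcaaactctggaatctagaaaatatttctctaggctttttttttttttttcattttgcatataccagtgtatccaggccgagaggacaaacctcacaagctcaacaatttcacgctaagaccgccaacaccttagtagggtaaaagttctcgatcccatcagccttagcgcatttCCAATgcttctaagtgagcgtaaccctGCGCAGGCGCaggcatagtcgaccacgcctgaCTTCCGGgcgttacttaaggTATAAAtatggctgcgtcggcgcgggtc
Snhg12: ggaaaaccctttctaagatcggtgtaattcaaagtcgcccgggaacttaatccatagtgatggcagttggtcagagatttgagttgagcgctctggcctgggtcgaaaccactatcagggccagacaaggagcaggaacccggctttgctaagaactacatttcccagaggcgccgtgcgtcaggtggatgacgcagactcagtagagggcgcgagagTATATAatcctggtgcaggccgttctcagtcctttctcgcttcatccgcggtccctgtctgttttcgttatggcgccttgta
The Snhg3 window held a CCAAT box (CCAAT) at -57 to -53 from the start. It also held, at -30 to -21, the NRF1-type motif, which is GCGC repeated after a gap of any 2 bases, and CTTCCGG, a form of the ETS-family site, at 3 to 9. A TATA-like TATANA stood after its annotated start, at 23 to 28. The Snhg12 window held TATANA, at -32 to -27 and matching on both strands, and none of the other 3. Of 32851 RefSeq promoter windows of this length, 24.7% held TATANA, 37.4% CCAAT, 8.86% CTTCCGG and 6.23% the NRF1-type motif. A run of 9 pyrimidines covered the annotated start of Snhg12, as long or longer a run as in 3.03% of windows. Snhg3 had no pyrimidine at its annotated start. The motifs were chosen after the sequences were seen, a match is not a measured binding site, and the sources used here give no end points of the deletion.

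In Control clones of 150126, Snhg3 ran from 2428 to 5368 CPM, the counts per 1000000 allele-assigned counts of a library, with a median of 3692. Snhg12 had 3263 CPM in the lowest clone, 4266 in the median and 5319 in the highest. In Control clones of 150416, Snhg3 ran from 3112 to 5397 CPM (median 3360) and Snhg12 from 2177 to 3013 CPM (median 2525). Every 150416 value of Snhg12 was thus below every 150126 value, while Snhg3 overlapped between dates. How many other captured genes separate the dates in this way was not counted, so the separation is not shown to be particular to Snhg12. Both genes were biallelic: the log2 ratio of the first to the second allele column averaged -0.01 ± 0.14 for Snhg3 and 0.16 ± 0.11 for Snhg12 (SD, n = 77). Library totals over both allele columns spanned 62104 to 2932173 counts (median 702020), and were lower in Control clones of 150416 (79483 to 470288) than in those of 150126 (130659 to 1957286).

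**Figure D1:**
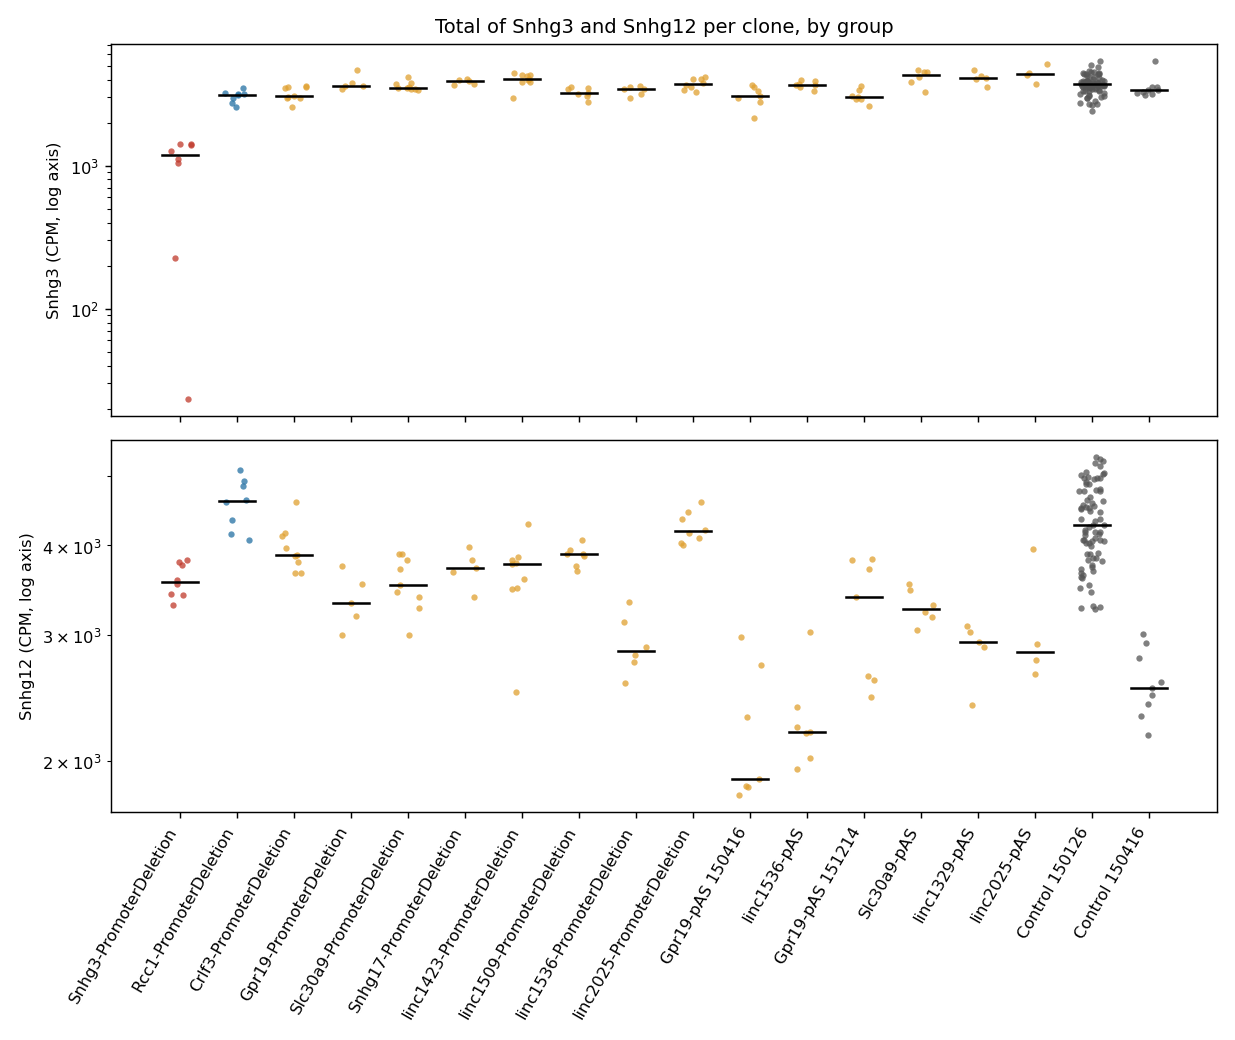
Each point is the total of Snhg3 (upper panel) or Snhg12 (lower panel) in 1 clone, in CPM on a log axis, and each bar is the group median; the groups with a chromosome 4 deletion come first and Control clones last. The Snhg3-PromoterDeletion clones lie below all Control clones for Snhg3, from 23.3 to 1418 CPM, while for Snhg12 they lie inside the range of Control clones of 150126.

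With the Snhg3 promoter deleted, Snhg3 RNA was nearly absent from 1 allele column in 6 of 8 clones and low in both columns in the other 2. Totals were 1417, 1418, 1272, 1391, 225, 1040, 23.3 and 1104 CPM in clones 1 to 8 of Snhg3-PromoterDeletion, against a Control range of 2428 to 5368 CPM. The groups did not overlap. The log2 fold change was -1.90 ± 0.20 (SE; edgeR quasi-likelihood test, adjusted p = 1.78e-12), where 36.9% of all genes tested were called. This comparison is also the check of the label, since the deletion targeted this gene.

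Either allele column could be the low one. Clones 1, 2, 4 and 8 had 27, 16, 24 and 22 Snhg3 counts in the first column, against 1334, 864, 1718 and 577 in the second. Clones 3 and 6 had 633 and 1601 counts in the first column and 14 and 15 in the second. In these 6 clones the lower column held from 0.937% to 3.81% of the count of the higher one. Clone 5 had 23 and 1 counts in the first and second column, in the shallowest library of the group (106850 counts in all). Clone 7 had 17 and 9 counts in a library of 1115423. The mean absolute deviation of the log2 allele ratio was 4.89 ± 1.82 in Snhg3-PromoterDeletion clones and 0.11 ± 0.09 in Control clones (SD, n = 8 and 77). The difference passed the permutation test (p = 1e-05, the smallest that 100000 resamples can give; adjusted p = 0.00227), where 1.32% of genes were called.

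The higher column was itself below the Control median of the same column. In the 6 clones with 1 low column it stood at 55.6% to 76.5% of that median. In clones 6 and 8 it was below every Control clone, and in clones 1, 2, 3 and 4 it exceeded 6.49% of Control clones or fewer. In clone 5 it stood at 11.6% of the Control median. These shares were not tested, and they were chosen for description after the counts were seen.

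**Figure D2:**
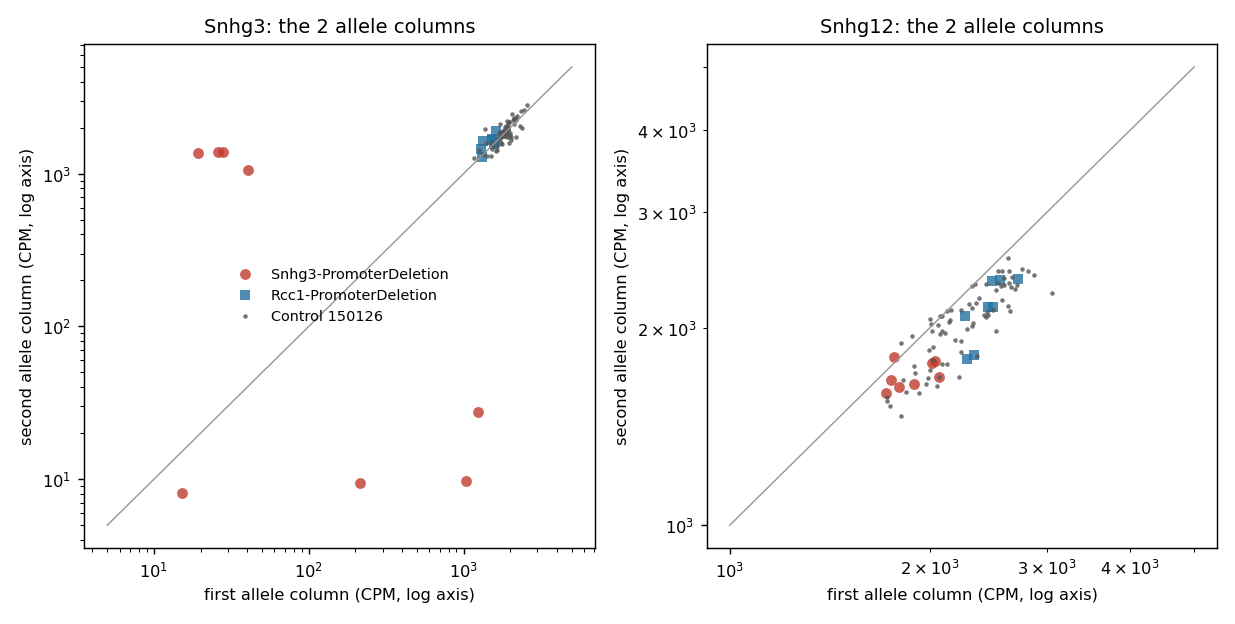
Each point is 1 clone, with the first allele column on the horizontal and the second on the vertical axis, both in CPM on log axes, for Snhg3 (left) and Snhg12 (right); the line marks equal columns. For Snhg3, 6 Snhg3-PromoterDeletion clones have from 9.66 to 40.6 CPM in 1 column and from 1031 to 1393 CPM in the other, while for Snhg12 the same clones lie among the Control clones.

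Snhg12 was modestly lower in the Snhg3-PromoterDeletion clones, and the deviation of its allele ratio did not pass the test. Its total was 3308 to 3817 CPM (median 3553) in Snhg3-PromoterDeletion clones, against 3263 to 5319 CPM (median 4266) in Control clones. All 8 were below the Control median and all 8 were inside the Control range. The log2 fold change was -0.28 ± 0.08 (adjusted p = 0.00387). Set against the 58 clones of 150126 with a modification on other chromosomes, it was -0.05 ± 0.06 (adjusted p = 0.554), and against Control clones of both dates -0.22 ± 0.12 (adjusted p = 0.158). The mean absolute deviation of the allele ratio was 0.073 ± 0.060 in Snhg3-PromoterDeletion clones and 0.089 ± 0.063 in Control clones (permutation test, adjusted p = 0.926). The sides of Snhg12 and Snhg3 matched in 6 of 8 clones, with an exact sign test p of 0.289, and Snhg12 deviated by 0.185 at most. In the 6 clones with at least 50 Snhg3 counts they matched in 4 (exact sign test, p = 0.688).

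Rcc1 and Trnau1ap, which lie between the host genes, gave other values in the same clones. Rcc1 deviated by 0.38 ± 0.11 in Snhg3-PromoterDeletion clones and 0.05 ± 0.04 in Control clones (permutation test, p = 1e-05, adjusted p = 0.00227). Its side matched that of Snhg3 in 7 of 8 clones, with an exact sign test p of 0.0703. In the 6 clones with at least 50 Snhg3 counts it matched in 6 (p = 0.0312, exact, the lowest attainable with 6). In total, Rcc1 had a log2 fold change of -0.15 ± 0.07 (adjusted p = 0.11). Trnau1ap deviated by 0.09 ± 0.07 in Snhg3-PromoterDeletion clones and 0.08 ± 0.08 in Control clones (adjusted p = 0.973), while its total was lower, by -0.31 ± 0.12 (adjusted p = 0.0379). Of the 36 other genes tested within 1 Mb, 7 were lower and 10 higher in total, with a median log2 fold change of 0.01 against -0.03 over all genes. Over all genes tested, 36.9% were called in total, in either direction. Among the 36 neighbours, Rcc1 was the single one called for its allele ratio. The largest total changes among those neighbours were 1.61 ± 0.30 at Oprd1, an opioid receptor gene, -1.21 ± 0.20 at Themis2, an immune signalling gene, and 0.96 ± 0.19 at Fgr, a Src-family kinase gene. Smaller ones were 0.73 ± 0.14 at Ahdc1, 0.68 ± 0.17 at Cd164l2 and -0.62 ± 0.24 at Ptafr, the receptor of platelet-activating factor.

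**Figure D3:**
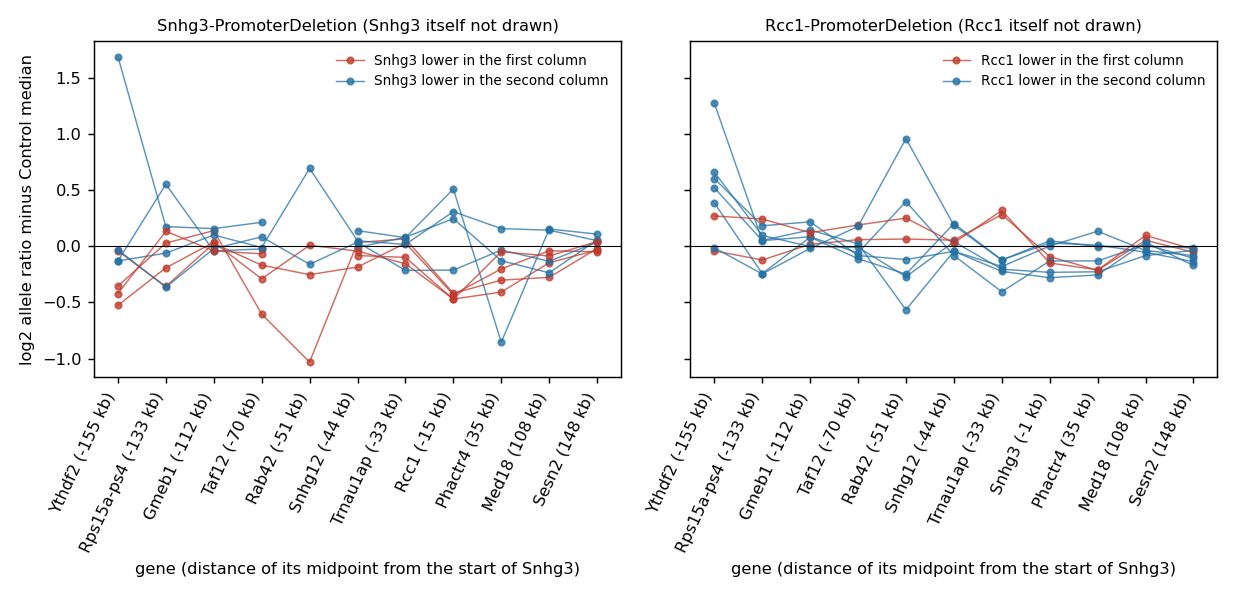
Each line is 1 clone of Snhg3-PromoterDeletion (left) or Rcc1-PromoterDeletion (right), and each point is the log2 allele ratio of a gene minus its median over Control clones, in order along chromosome 4; the horizontal axis names the gene and the distance of its midpoint from the start of Snhg3, and the colour gives the column in which the targeted gene is lower. Snhg12 stays within 0.203 of the Control median in both groups, while Rcc1 in Snhg3-PromoterDeletion clones deviates by up to 0.51, in clone 5. Single points of other genes lie farther out in that group: 1.69 at Ythdf2 and -0.85 at Phactr4 in clone 5, and -1.03 at Rab42 in clone 2.

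Rcc1-PromoterDeletion clones had less Snhg3 than Control clones, with a lower median in both allele columns. Rcc1 itself fell to 1970 to 3242 CPM in Rcc1-PromoterDeletion clones, against 4063 to 7944 CPM in Control clones (log2 fold change -1.22 ± 0.09, adjusted p = 4.38e-22; 46.7% of genes called). Snhg3 had 3193, 3214, 3515, 3136, 2964, 3146, 2742 and 2587 CPM in clones 1 to 8 of Rcc1-PromoterDeletion, against a Control median of 3692 CPM. All 8 were below that median and none was below the lowest Control clone. The log2 fold change of Snhg3 was -0.39 ± 0.09 (adjusted p = 2.37e-04). It was -0.31 against the clones modified on another chromosome (adjusted p = 6.72e-04), and passed the threshold under every alternative run, leaving out each clone included, from -0.27 to -0.40. In its first allele column Snhg3 had a median of 1532 CPM in Rcc1-PromoterDeletion clones and 1853 CPM in Control clones. The second had 1604 CPM in Rcc1-PromoterDeletion clones and 1820 CPM in Control clones. These column medians were not tested. A fall of Snhg3 was not particular to this deletion. It was also called lower in 3 groups modified on other chromosomes: Gpr19-pAS-151214 (-0.51), Crlf3-PromoterDeletion (-0.30) and linc1509-PromoterDeletion (-0.29).

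The allele ratio of Snhg3 deviated by 0.12 ± 0.10 in Rcc1-PromoterDeletion clones and 0.11 ± 0.09 in Control clones (permutation test, adjusted p = 0.923; 1.26% of genes called). The sides of Snhg3 and Rcc1 matched in 5 of 8 clones, with an exact sign test p of 0.727. Trnau1ap lay on the opposite side from Rcc1 in all 8, for which the exact sign test gave p = 0.00781, its minimum with 8 values. It deviated by 0.23 ± 0.10 in Rcc1-PromoterDeletion clones and 0.08 ± 0.08 in Control clones (permutation test, adjusted p = 0.0143). Its total was higher in Rcc1-PromoterDeletion clones, by 0.62 ± 0.11 (adjusted p = 7.53e-06). Other named neighbours changed in total by -0.92 ± 0.17 (Ythdf2, a reader of methylated adenosine), -0.86 ± 0.25 (Dnajc8), -0.74 ± 0.16 (Rps15a-ps4, a pseudogene whose reads could come from its parent gene), 0.67 ± 0.18 (Ptpru), -0.56 ± 0.22 (Fgr) and 0.56 ± 0.17 (Cd164l2). Of the 36 other genes tested within 1 Mb, 10 were lower and 6 higher, and Trnau1ap was the single one called for its allele ratio. Over all genes tested, 46.7% were called in total in Rcc1-PromoterDeletion, in either direction, so calls in total were common away from this locus too.

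Snhg12 did not pass the test in Rcc1-PromoterDeletion clones. It ran from 4068 to 5092 CPM (median 4618) in Rcc1-PromoterDeletion clones and from 3263 to 5319 CPM (median 4266) in Control clones, with a log2 fold change of -0.02 ± 0.08 (adjusted p = 0.839). The sign turned with the scaling, to 0.09 with library size alone (adjusted p = 0.282), a scaling that moved the median of all genes from 0.003 to 0.116 and the share of lower calls from 52.5% to 35%. Against the 58 clones modified on another chromosome, Snhg12 was higher in Rcc1-PromoterDeletion clones, by 0.24 ± 0.06 (adjusted p = 0.00193). Its allele ratio deviated by 0.086 ± 0.069 in Rcc1-PromoterDeletion clones and 0.089 ± 0.063 in Control clones (permutation test, adjusted p = 0.981).

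Set directly against each other, the chromosome 4 deletions differed at both host genes. Snhg12 was lower in Snhg3-PromoterDeletion than in Rcc1-PromoterDeletion clones, by -0.28 ± 0.07 (edgeR, adjusted p = 8.68e-04), and 8 clones of the one (3308 to 3817 CPM) lay below all 8 of the other (4068 to 5092 CPM). In that comparison 68.5% of genes were called, so a call was the usual outcome. Snhg3 differed by -1.52 ± 0.40 (adjusted p = 0.00216). This comparison was added after the data were seen.

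The ratio of Snhg3 to Snhg12 within a library does not depend on the scaling between libraries. On the log2 scale of counts it averaged -2.52 ± 2.15 in Snhg3-PromoterDeletion clones and -0.22 ± 0.28 in Control clones (permutation test, p = 1e-05). Without clone 7 the difference shrank to -1.61, against -2.30 with it. In Rcc1-PromoterDeletion clones the ratio averaged -0.58 ± 0.12 (difference -0.36, p = 2.9e-04), and in the clones of 150126 modified elsewhere -0.04 ± 0.23 (difference 0.19, p = 8e-05). The same 77 Control clones served all 3 comparisons, which therefore are not independent.

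Of the other snoRNA host genes on a list of 57, 4 were captured. Snhg17 (row linc1329) was lower in Snhg3-PromoterDeletion clones, by -0.26 ± 0.06 (adjusted p = 0.00111). Snhg11, Ncl (nucleolin) and Npm1 (nucleophosmin) had -0.12, 0.06 and 0.17 there (adjusted p = 0.711, 0.775 and 0.275). In Rcc1-PromoterDeletion clones Ncl was lower by -0.63 ± 0.15 (edgeR, adjusted p = 3.4e-04) and Npm1 by -0.48 ± 0.13 (adjusted p = 0.00208). Snhg17 and Snhg11 had -0.12 and 0.21 there (edgeR, adjusted p = 0.1 and 0.409). Over all genes tested, 36.9% were called in Snhg3-PromoterDeletion and 46.7% in Rcc1-PromoterDeletion, so a call was common. Over all clones of 150126 modified on chromosomes other than 4, Snhg17 had -0.16 ± 0.11 (edgeR, adjusted p = 0.271). These include the Snhg17-PromoterDeletion clones, in which its own promoter was deleted. For Snhg17 the value is therefore not one of clones modified elsewhere.

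The log2 fold change of Snhg12 over Control clones was below 0 in all 14 groups modified on other chromosomes, and Snhg12 was called lower in 10 of them and higher in 0. Snhg3 was called lower in 3 and higher in 0, with 7 of its 14 values below 0. Against clones modified on a chromosome other than the group's own it was called lower in 3 and higher in 1, with 5 of 14 below 0. The latter reference sets modified groups against one another, so values on both sides of 0 are built into it. Over these groups, the share of all genes called lower ran from 1.23% in Gpr19-pAS of 150416 to 31.6% in Gpr19-pAS-151214. Of the 408 genes tested in every group, 3 (0.735%), Snhg12 included, were called lower in at least 10 groups, and the median gene in 2. As many as 3 calls, the number of Snhg3, were reached by 46.8% of genes. Groups of 1 date share their Control clones, so the 14 values are not independent.

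The Snhg12 calls depended on the reference. In the 10 groups with Control clones of their own date, Snhg12 was called lower in 6 against those and in 3 against Control clones of both dates. With clones of the same date modified on a chromosome other than the group's own as the reference, it was called lower in 1 and higher in 1 of 14. Its log2 fold changes there ran from -0.32 to 0.21, 6 of the 14 were below 0, and their median was 0.01. Such fits set modified groups against one another, so their values spread around 0 whatever the level of Control clones. They cannot show whether modified clones in general differ from Control clones. Against Control clones the 14 values of Snhg12 ran from -0.69 to -0.07, with a median of -0.25. With library size in place of TMM scaling, Snhg12 was called lower in 8 groups and Snhg3 in 2, and all 14 values of Snhg12 stayed below 0. That scaling moved the median log2 fold change of all genes from -0.03 to 0.21 in Gpr19-pAS-151214, from -0.04 to 0.17 in Slc30a9-pAS, from -0.07 to 0.08 in linc1329-pAS and from -0.01 to 0.14 in linc2025-pAS. The share of called genes that were lower moved from 52.5% to 30.2% in Gpr19-pAS-151214, from 54.5% to 35.5% in Slc30a9-pAS, from 53.6% to 40.9% in linc2025-pAS, from 53.4% to 35.6% in Crlf3-PromoterDeletion, from 56.7% to 26.9% in linc1509-PromoterDeletion and from 64.4% to 77.5% in Slc30a9-PromoterDeletion. Over all clones of 150126 modified elsewhere it moved from 52.8% to 42.6%.

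The 10 called groups were of both kinds of modification. The lowest value, -0.69 ± 0.15, was that of linc1329-pAS, where 26.3% of genes were called lower (edgeR, adjusted p = 9.45e-05). Next came -0.62 ± 0.13 in Gpr19-pAS-151214 (31.6% of genes lower; adjusted p = 4.26e-05) and -0.58 ± 0.18 in linc2025-pAS (26.8%; adjusted p = 0.00486). Slc30a9-pAS had -0.54 ± 0.14 (29.3%; adjusted p = 7.65e-04). All 4 carry the later date label, which has no Control clones, so date and modification cannot be told apart there. In linc1329-pAS the clones had 2888, 3091, 3030, 2395 and 2932 CPM of Snhg12. In 4 of 5 clones this lay between the medians of the Control dates (4266 CPM at 150126 and 2525 CPM at 150416), and clone 4 lay lower.

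Among the promoter deletions of 150126, linc1536-PromoterDeletion had the largest fall of Snhg12, -0.54 ± 0.09 (20% of genes called lower; adjusted p = 3.83e-05). Its clones ran from 2569 to 3333 CPM (median 2849), and 5 of 6 were below the lowest of the 77 Control clones. Gpr19-PromoterDeletion had 3536, 3745, 3325, 2999 and 3184 CPM and a log2 fold change of -0.34 ± 0.10 (13.2% of genes lower; adjusted p = 0.0243). That call was lost without clone 1, 3, 4 or 5 in turn (-0.36 to -0.31, adjusted p 0.0548 to 0.0686). The other 4 called deletions lay close together: linc1423 at -0.25 ± 0.08 (16% of genes lower; adjusted p = 0.00728), linc1509 at -0.25 ± 0.08 (7.17%; adjusted p = 0.0291), Slc30a9 at -0.24 ± 0.07 (18.1%; adjusted p = 0.015) and Crlf3 at -0.21 ± 0.07 (22.9%; adjusted p = 0.0183). The other 4 did not pass, namely Gpr19-pAS of 150416 (-0.24 ± 0.12, adjusted p = 0.387), Snhg17-PromoterDeletion (-0.22 ± 0.10, adjusted p = 0.0799; 16.1% of genes lower), linc1536-pAS (-0.19 ± 0.09, adjusted p = 0.182; 2.84%) and linc2025-PromoterDeletion (-0.07 ± 0.08, adjusted p = 0.462; 26.6%).

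Pooled over the 8 groups of 150126, Snhg12 had a median of 3779 CPM in 58 modified clones and 4266 CPM in 77 Control clones. The log2 fold change was -0.24 ± 0.03 (edgeR, adjusted p = 1.39e-08), where 22.9% of genes were called in either direction. At 150416 it was -0.21 ± 0.10 in 14 modified against 9 Control clones (adjusted p = 0.246; 4.63% of genes called). Snhg3 gave -0.06 ± 0.04 at 150126 and -0.07 ± 0.10 at 150416 (adjusted p = 0.228 and 0.771). Every Control title bears a number from P1 upwards, called a P label here, and the modified clones bear none. Whatever that label stands for therefore cannot be told apart from the modification.

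For Snhg3, the called falls were -0.51 ± 0.10 in Gpr19-pAS-151214 (adjusted p = 5.22e-06), -0.30 ± 0.08 in Crlf3-PromoterDeletion (adjusted p = 0.00181) and -0.29 ± 0.09 in linc1509-PromoterDeletion (adjusted p = 0.0216). The Gpr19-pAS-151214 clones had 2591 to 3583 CPM (median 3033), those of Crlf3-PromoterDeletion 2554 to 3588 CPM (median 3086) and those of linc1509-PromoterDeletion 2802 to 3527 CPM (median 3207). Every clone of these 3 groups was below the median of Control clones of 150126 and none was below their range. The Gpr19-pAS clones of 150416 gave -0.20 ± 0.12 (adjusted p = 0.525), and those of Gpr19-PromoterDeletion 0.07 ± 0.11 (adjusted p = 0.67). In linc1509-PromoterDeletion the call was lost with library size alone (-0.19, adjusted p = 0.113) and without clone 1 or clone 6 (-0.28 and -0.26, adjusted p = 0.0529 and 0.0756).

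**Figure D4:**
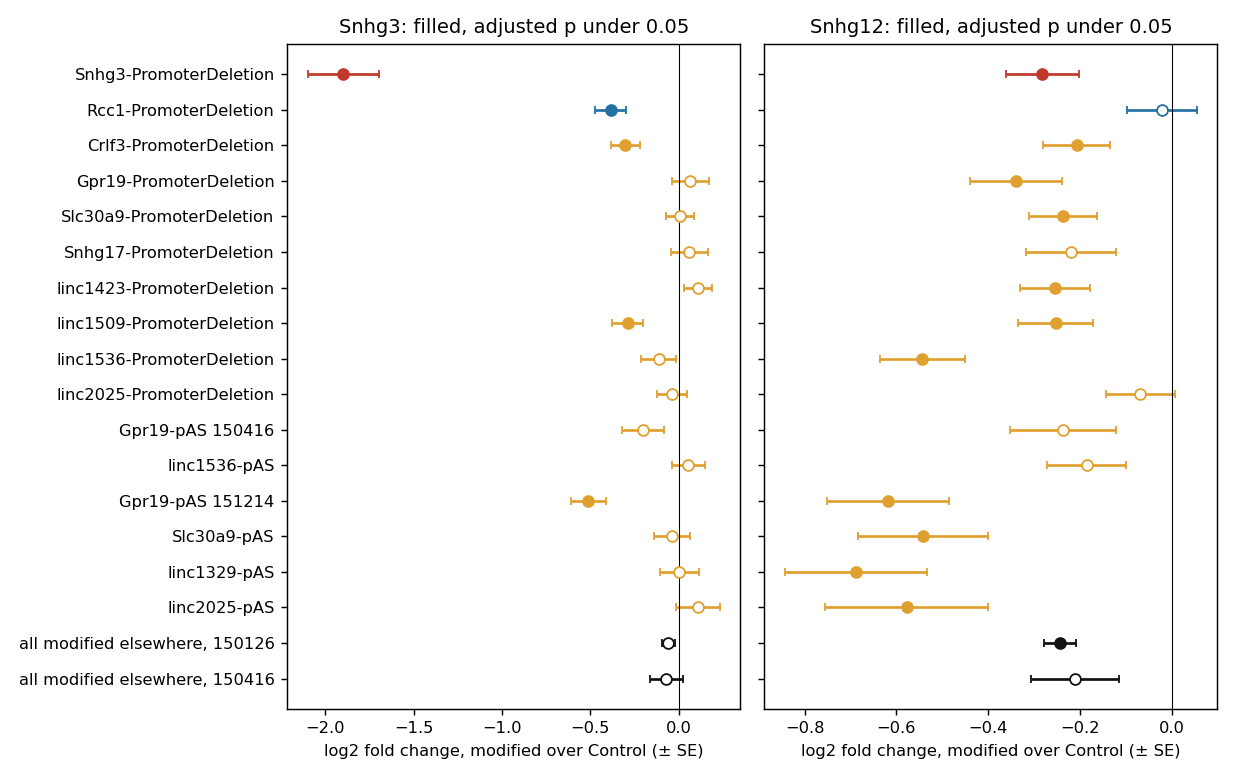
Each point is the log2 fold change of Snhg3 (left) or Snhg12 (right) in a modified group over its Control clones, or in all groups of a date modified elsewhere (bottom), with its SE as the bar; filled points passed an adjusted p of 0.05. For Snhg12 all 14 groups modified on other chromosomes lie left of 0, from -0.69 to -0.07, while for Snhg3 they lie on both sides, from -0.51 to 0.11.

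The log2 allele ratios of the host genes also differed from those of Control clones in some groups modified on other chromosomes. Of 28 signed shifts of the log2 allele ratio tested, adjusted over the 28, 3 of Snhg3 and 2 of Snhg12 passed. The signed test was run on these 2 genes alone, so no share over all genes can be set beside these counts. In the 5 clones of Snhg17-PromoterDeletion the log2 ratio of Snhg3 was 0.29, 0.19, 0.31, 0.31 and 0.27, and averaged 0.27 ± 0.05, against -0.01 ± 0.14 in Control clones (permutation test, p = 3e-05, adjusted p = 5.6e-04). In linc1329-pAS, at the same locus, the 5 clones had 0.56, 0.19, 0.15, 0.18 and 0.40, averaging 0.29 ± 0.18, against 0.01 ± 0.16 in 86 Control clones (adjusted p = 0.00663). In linc2025-PromoterDeletion it averaged -0.23 ± 0.07, against -0.01 ± 0.14 (p = 4e-05, adjusted p = 5.6e-04), and all 8 clones were below the Control median. The linc2025-pAS clones gave 0.11 ± 0.11 (adjusted p = 0.376), on the other side. For Snhg12 the shift passed in Crlf3-PromoterDeletion, at -0.13 (0.03 ± 0.12 against 0.16 ± 0.11, permutation test, adjusted p = 0.0086). It also passed in Slc30a9-pAS, at -0.14 (0.02 ± 0.13 against 0.16 ± 0.11, permutation test, adjusted p = 0.0256). The sign was not particular to these 2 groups. In every group modified on other chromosomes the Snhg12 shift was below 0, from -0.14 in Slc30a9-pAS to -0.00094 in linc2025-pAS. Among Control clones of 150126, the mean ratio per P label ran from -0.18 to 0.27 for Snhg3 and from 0.04 to 0.28 for Snhg12.

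By the unsigned test, whose p-values were adjusted over all genes, Snhg3 in linc1329-pAS was the single one called among the 28 (0.30 ± 0.18 in modified and 0.12 ± 0.11 in Control clones, adjusted p = 0.0353; 18.9% of genes called). Against clones modified on other chromosomes, 0 of the 28 were called, but that reference sets modified groups against one another. With Control counts summed per P label, which gave a test in 12 groups, Snhg3 was called in 3 and Snhg12 in 7. There, single modified clones were set against fewer and deeper Control values, whose ratios are less noisy. The share of all genes called under that setting is not given here, so these counts are no result about the host genes. Snhg3 in Snhg17-PromoterDeletion had 0.28 ± 0.05 in modified and 0.11 ± 0.09 in Control clones (permutation test, adjusted p = 0.0534; 0.703% of genes called). Against single Control clones, Snhg12 was called in 0 groups. At unadjusted p it was under 0.05 in Gpr19-PromoterDeletion (permutation p = 0.00395) and linc1536-PromoterDeletion (permutation p = 0.0336). The share of genes called by this test was 0% in Gpr19-pAS of 150416, linc1509-PromoterDeletion and linc1536-pAS. It was 0.765% in Gpr19-PromoterDeletion, 0.868% in linc2025-PromoterDeletion, 1.35% in linc1423-PromoterDeletion, 1.46% in Crlf3-PromoterDeletion and 4.43% in Slc30a9-PromoterDeletion. It was 8.83% in Gpr19-pAS-151214, 11% in Slc30a9-pAS, 11.7% in linc1536-PromoterDeletion and 20.2% in linc2025-pAS. Median library counts were 272280 in linc1329-pAS and 143247 in linc2025-pAS, against 834233 in their Control clones. They were 214684 in linc1536-PromoterDeletion and 302547 in Gpr19-PromoterDeletion, against 924005 in Control clones of 150126. Fewer counts make a ratio noisier, and the part of depth in these deviations was not tested.

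Over Control clones no correlation between the host genes passed the test. At 150126 (n = 77) Pearson's r was 0.07 (permutation p = 0.556) and Spearman's rho 0.03 (p = 0.808), and 0.00 and -0.02 without the 2 clones farthest from the median of Snhg3. With TMM-scaled CPM r was 0.20 (permutation p = 0.0745) and rho 0.15 (p = 0.196). Within P labels rho was -0.21 (p = 0.124), and over the means of the 25 P labels 0.03 (p = 0.888). At 150416 (n = 9) r was 0.32 (permutation p = 0.444) and rho 0.25 (p = 0.523), and without the 2 farthest clones 0.73 and 0.71 (p = 0.0543 and 0.0873). The allele ratios gave rho = -0.04 at 150126 (permutation p = 0.736) and 0.35 at 150416 (permutation p = 0.359). In the 8 Rcc1-PromoterDeletion clones the totals gave r = 0.56 and rho = 0.62 (permutation p = 0.144 and 0.115), and 0.36 and 0.37 without the 2 farthest. Over these 5 tests the lowest adjusted p was 0.72 for r and 0.575 for rho.

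**Figure D5:**
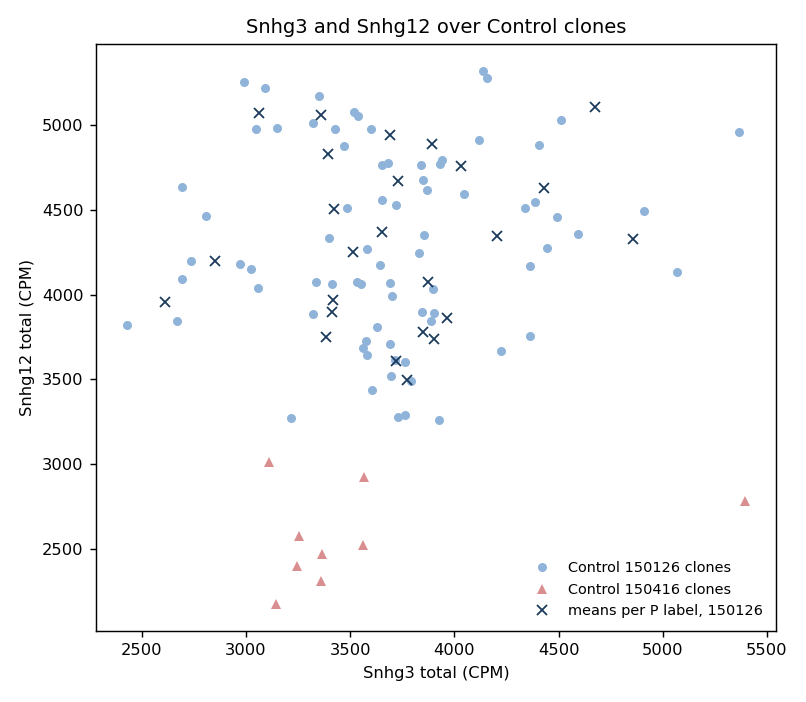
Each point is 1 Control clone with its Snhg3 total on the horizontal and its Snhg12 total on the vertical axis, in CPM, by date label; crosses are means of the clones of 150126 that share a P label. At 150126 rho was 0.03, and all 9 clones of 150416 lie below those of 150126 in Snhg12, a separation that was not counted over other genes.

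Most of the variation in the totals of both genes between Control clones followed the P label. At 150126, where each of 25 P labels holds 3 to 5 clones, the P label took up 82.4% of the variation of Snhg3 and 78.8% of that of Snhg12 (log2 CPM), against 66.7% for the median gene and 31.6% if P labels did not differ. Of the allele ratios it took up 53.8% for Snhg3 and 35.4% for Snhg12, against 40.2% for the median gene and the same 31.6% without differences. The share for the Snhg12 ratio was thus close to that of no difference. For the totals and the Snhg3 ratio, clones that share a P label are not independent. P-values from tests over single clones, of totals, allele ratios and the ratio of Snhg3 to Snhg12, may be too small. The rho of the total with library depth was 0.12 for Snhg3 and 0.37 for Snhg12.

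The genes whose totals followed each host gene most closely over Control clones were not the other host gene. By the mean of the rho at 150126 and at 150416 over 419 genes, Snhg3 was closest to 8430419L09Rik (0.53), B3gnt7 (0.52), Anapc11 (0.51), D930048N14Rik (0.51) and Fam174b (0.50). The dates differed: B3gnt7 had 0.07 at 150126 and 0.97 at 150416, and D930048N14Rik 0.68 at 150126 and 0.33 at 150416. Snhg12 was closest to Mecr (0.72), Smpd5 (0.69), Srsf4 (0.67), Adck5 (0.66) and 0610009B22Rik (0.59), with values between 0.49 and 0.73 at 150126. Mecr, an enzyme of mitochondrial fatty acid synthesis, and Srsf4, a splicing factor, are on chromosome 4. Trnau1ap, the nearest captured gene to Snhg12, had 0.72 with it at 150126 and 0.33 at 150416. Snhg12 came 109th for Snhg3, with a mean rho of 0.14. Points of these values share libraries, depth and P labels, and were chosen for being highest.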

How the data were processed

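Poly(A)+ RNA of single clones was enriched by hybrid selection and sequenced in barcoded pools, per the labels' protocols. The authors deposited whole-number counts per transcript in 2 allele columns, with mm9 as the build, per the submitters' processing notes. The sources used here do not give the aligner, the counting tool or the way reads were assigned to alleles. A read without a strain difference is in neither column, so a total here is the sum of both columns and depends on how many such differences a transcript holds.

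Of 462 samples, 439 had a count file; 23 samples of other assays were not analysed here, and 243 libraries list neither gene. Of 692 rows 691 were used, since 1 repeats Tsix under a second name. Groups came from sample titles. Clones are separate by their labels, and clone numbers are only names.

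Totals were tested with edgeR 4.0.16 in R 4.3.3 (quasi-likelihood, TMM scaling, mean count of at least 10), per modified group against Control clones of its date label, or all Control clones where that date has none. P-values were adjusted over all genes of a fit (Benjamini-Hochberg, threshold 0.05), and a gene past it is written as called. The allelic test took the log2 ratio of the columns (0.5 added to each, at least 20 counts), its absolute deviation from the pooled median, and a two-sided permutation of clones between groups (exact up to 100000 splits, otherwise 100000 resamples). CPM carries no TMM factor. Correlations and ratios used permutation tests with Python 3.11.15, NumPy 2.4.6, SciPy 1.17.1, pandas 2.3.3 and numba 0.67.0; figures used Matplotlib 3.10.9. Alternatives were DESeq2 1.42.0, scaling by library size alone, other reference clones, no filter on low counts, Control counts summed per P label, an allelic fraction, a minimum of 50 allele counts and leaving out each clone. On simulated counts for Snhg3-PromoterDeletion, changes of 0.5, 1 and 2 (log2) were recovered in 73.8%, 92.6% and 100% of changed genes for totals (469 genes) and in 55.2%, 80.3% and 91.0% for allele ratios (455 genes). Of unchanged genes, 1.48% were called for totals and 1.57% for allele ratios. The simulated clones were independent, without differences between P labels, so these shares may not hold for the measured clones.

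The 2 genes, the gene lists, the motifs and the rule for named genes were chosen with earlier results of these data known. Named genes are both host genes, the genes between them, the targeted gene, the captured snoRNA hosts, the 6 largest called changes within 1 Mb, and the 5 genes most alike over Control clones. The Snhg3-PromoterDeletion against Rcc1-PromoterDeletion fit was added after the data were seen.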

Additional observations from a re-analysis of the deposited data

Results flagged for a closer look

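Among 68 sets of values, each the totals or allele ratios of 1 host gene in 1 group, 7 held a clone far from the rest of its group by Dixon's test at 95%, which chance gives in about 1 of 20 sets. In Gpr19-pAS of 150416, clone 7 had a log2 allele ratio of 3.22 for Snhg3, from 191 and 20 counts, against 0.01 to 0.63 in the other 6 clones. Its Snhg12 ratio was -0.02, and its library held 98278 counts. In linc1423-PromoterDeletion, clone 5 was low in both genes, with 2970 CPM of Snhg3 (3819 to 4422 in the others) and 2497 CPM of Snhg12 (3480 to 4293 in the others). It had the shallowest library of its group, with 103716 counts. Snhg3 was high in Gpr19-PromoterDeletion clone 1, at 4638 CPM against 3458 to 3763 in the others, and in Slc30a9-PromoterDeletion clone 1, at 4134 CPM against 3389 to 3760. Among Control clones of 150416, clone 7 had 5397 CPM of Snhg3 against 3112 to 3568 in the other 8. Snhg12 was high in linc1536-pAS clone 1, at 3027 CPM against 1948 to 2380.

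Between the chromosome 4 deletions, Snhg12 was lower in Snhg3-PromoterDeletion than in Rcc1-PromoterDeletion clones, by -0.28 ± 0.07 on the log2 scale (edgeR, adjusted p = 8.68e-04). In this fit, added after the data were seen, 68.5% of genes were called, so a call was the usual outcome.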

How the results depend on the processing

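The Snhg3 total kept its direction and its call in both chromosome 4 deletions under every alternative run. Snhg12 in Snhg3-PromoterDeletion lost its call with Control clones of any date (-0.22) or clones modified on other chromosomes (-0.052) as the reference. Snhg12 in Rcc1-PromoterDeletion (-0.021) turned to 0.0023 with DESeq2, 0.089 with library size alone, 0.0049 without the filter, 0.073 with Control clones of any date, 0.24 with clones modified on other chromosomes, 0.016 with Control counts summed per P label, and -0.032 to 0.029 leaving out 1 clone each. Against clones modified on other chromosomes, 8 of the 14 values of Snhg12 in groups modified elsewhere were not below 0, among them 0.041 in linc2025-pAS and 0.11 in Slc30a9-pAS, and Snhg12 was called in 2. That reference sets modified groups against one another, so values on both sides of 0 are built into it. Snhg12 was called in 3 of 10 groups modified elsewhere with Control clones of any date, against 10 of 14; the 4 groups left out already used all Control clones. Allelic calls of Snhg12 in those groups (0) became 1 with Control clones of any date and 7 with counts summed per P label, a reference of fewer, deeper values. Those of Snhg3 (1) became 3 with counts summed per P label, 2 with an allelic fraction or a minimum of 50, and 0 against clones modified on other chromosomes. Differences in allelic deviation, none of them called, changed sign: Snhg3 in Rcc1-PromoterDeletion (0.015) became -0.026 against clones modified on other chromosomes and ran from -0.0078 to 0.031 leaving out 1 clone each; Snhg12 became 0.022 in Snhg3-PromoterDeletion and 0.033 in Rcc1-PromoterDeletion with counts summed per P label, and ran from -0.02 to 0.0042 in Rcc1-PromoterDeletion leaving out 1 clone each. With a minimum of 50 counts, Rcc1 lay on the side of Snhg3 in 6 of 6 clones and Snhg12 in 4 of 6. The rho of the totals became -0.016 without 2 clones and -0.21 within P labels, and that of the allele ratios 0.016 within P labels and 0.35 at 150416. For the other turned signs the cause was not tested. No paired analysis was possible because clone numbers are accession order and pair no clones across groups.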
